A study of Mus musculus with 2 samples.

Results

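The genes described here were 34 type I interferon response genes, chosen by name and required to have unique molecular identifiers (UMIs, counted molecules) in both libraries of the series. All 34 met this rule, out of 55450 features in the tables, of which 25984 had a UMI. Peritoneal lavage cells positive for F4/80 had been sorted and made into 2 droplet libraries (10x Genomics, 3' ends), 1 of Ankrd22-/- mice edited with CRISPR/Cas9 and 1 of Ankrd22+/+ mice. F4/80, encoded by Adgre1, is a macrophage surface antigen, and Ankrd22 encodes an ankyrin repeat protein. Neither group is labelled with a treatment, and strain, sex, age and the number of mice pooled are not given in the sources used here. A single library stood for each genotype, so differences have no replicate check and no test was possible. What is set side by side is 1 library and another, and intervals cover counting error only.

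Type I interferons signal through the receptor chains Ifnar1 and Ifnar2 and the kinases Jak1 and Tyk2 to a complex that includes Stat2 and Irf9 and binds the interferon-stimulated response element of target genes. The targets include sensors of viral nucleic acid, effectors that block viral entry, translation or replication, and regulators that raise or end the response. Unstimulated macrophages are known for a low, tonic level of these transcripts, kept up by small amounts of interferon.

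The knockout library held 6706 barcodes and 110956482 UMIs, and the wild type library 6315 barcodes and 96869041 UMIs. After filters 6036 and 5946 cells were kept, and 15 barcodes occurred in both libraries, 11 of them among kept cells. The libraries hardly shared a cluster, so the comparison is between clusters by number, where clusters 0, 3, 5 and 7 held nearly all of 5022 knockout cells and clusters 1, 2, 4 and 10 nearly all of 5004 wild type cells, with medians of 15535 and 14140 UMIs. They are called the large macrophage clusters, since at least 15 of 16 markers of large peritoneal macrophages were seen in at least 25% of the cells of each. Cluster 0 had a monocyte marker, Nr4a1, and none of its own class among its 10 leading genes, and haemoglobin transcript Hbb-bs led clusters 1, 3 and 5. Adgre1 was seen in 98.3% and 98.5% of these cells, and Gata6, the defining factor of large peritoneal macrophages, in 86.1% and 77.6%. Ankrd22 had 0 UMIs in both libraries, which allows up to 0.0270 and 0.0310 CPM (UMIs of a gene scaled to an equal total), and gives no check of which library is which. The libraries also differed in measures tied to RNA and cell state. The nuclear transcript Malat1 stood at 12517 CPM (knockout) and 4798 CPM (wild type), and the median mitochondrial share at 1.503% and 0.694%. Cxcl2, a chemokine of activated macrophages, stood at 409 and 8499 CPM. Markers of other cell types in these clusters summed to 239 and 689 CPM for 13 of small macrophages, 34.6 and 48.3 CPM for 10 of B cells, and 105 and 38.6 CPM for 10 of erythroid cells and platelets. Sums were 605 and 465 CPM for 10 of monocytes, 104 and 47.8 CPM for 10 of mast cells (nearly all Hdc), 116 and 69.8 CPM for 10 of fibroblasts (nearly all Pi16) and under 1 CPM for 10 of T cells. The part of these measures in the member ratios below was not tested.

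Promoter sequence is shown for a few members picked from the list. Ifit1, Isg15 and Rsad2 were seen in few cells, Phf11b and Trim30a differed between the libraries, and Ifitm3 was seen in nearly every cell. RefSeq promoter windows of build GRCm38.p6, read from 250 bases before the start to the start, were matched by symbol for 25 of the 34 members. The bases just after the start were found within a GENCODE transcript of the same symbol for 22 of the 30 windows of these members. Whether a transcript begins at that base was not examined, so distances refer to the start of the RefSeq window. No window was matched for Mx1, Mx2, Oas2, Usp18, Zbp1, Ly6e, Parp14, Rtp4 and Ifi27l2a. The core letters of the interferon-stimulated response element, GAAANNGAAA or the reverse complement TTTCNNTTTC, occurred in at least 1 window of 12 of the 25 members. Over all symbols with a window, 3.46% of 27018 held these letters. Matches were in Bst2, Ifit1, Ifit3, Ifit3b, Isg15, Oas1a, Oas3, Phf11b, Rsad2, Slfn5, Stat2 and Trim30a, and their first bases lay from 222 to 14 bases before the start. The letters TTCNNNGAA of the gamma-activated site were in windows of 4 of the 25 members and of 8.13% of all symbols. A match is a description of letters and not a binding site, and members without one may hold other forms of the element. The members shown do not stand for the list, since 13 of the 25 held no match. Ddx58 and Ifih1, which differed between the libraries by more than Trim30a, have windows without the letters and are not shown. The 150 bases before the start follow, on the gene's own strand, with matches in capitals (overlapping matches run together).

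Ifit1: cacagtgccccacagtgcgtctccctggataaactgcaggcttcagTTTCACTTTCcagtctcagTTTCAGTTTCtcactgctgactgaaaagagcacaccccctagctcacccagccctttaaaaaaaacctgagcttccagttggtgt
Isg15: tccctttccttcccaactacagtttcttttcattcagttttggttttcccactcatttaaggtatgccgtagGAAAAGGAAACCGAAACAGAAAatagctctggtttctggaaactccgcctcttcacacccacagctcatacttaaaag
Rsad2: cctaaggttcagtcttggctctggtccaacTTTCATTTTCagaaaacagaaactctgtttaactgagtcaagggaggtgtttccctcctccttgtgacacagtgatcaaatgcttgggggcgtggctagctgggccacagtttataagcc
Phf11b: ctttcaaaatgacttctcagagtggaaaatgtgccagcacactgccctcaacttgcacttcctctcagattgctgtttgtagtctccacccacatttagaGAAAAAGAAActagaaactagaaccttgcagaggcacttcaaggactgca
Trim30a: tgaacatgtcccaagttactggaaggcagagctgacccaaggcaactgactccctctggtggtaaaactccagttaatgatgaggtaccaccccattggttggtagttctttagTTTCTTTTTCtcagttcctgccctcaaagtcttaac
Ifitm3: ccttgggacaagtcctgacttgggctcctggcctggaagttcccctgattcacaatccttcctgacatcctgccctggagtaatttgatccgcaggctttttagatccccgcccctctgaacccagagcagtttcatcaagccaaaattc

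These stretches are chr19:34640739-34640888 on the plus strand, chr4:156200819-156200968 on the minus strand, chr12:26456453-26456602 on the minus strand, chr14:59341331-59341480 on the minus strand, chr7:104465194-104465343 on the minus strand and chr7:141010745-141010894 on the minus strand. Ifit1 held 2 separate copies of the letters, Isg15 held 3 overlapping ones, and Rsad2, Phf11b and Trim30a held 1 each. A further window of Trim30a, for another start, held none. Ifitm3, the member with by far the most UMIs, held none in its window.

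The tonic level of the list was dominated by a membrane protein. The 34 members together made up 37.3 of every 10000 knockout UMIs (95% interval from 37.2 to 37.4) and 36.3 of every 10000 wild type UMIs (36.2 to 36.4) in the large macrophage clusters. Ifitm3 (interferon-induced transmembrane protein 3, which blocks the fusion of viruses with endosomal membranes) held 66.9% (knockout) and 66.2% (wild type) of these UMIs. Without Ifitm3 the level was 12.3 per 10000 in both libraries. A subset of 20 members is known to be strongly inducible by interferon and is called the inducible members: Zbp1, Irf7, Isg15, Usp18, Ifit1, Ifit2, Ifit3, Ifit3b, Oas1a, Oas2, Oas3, Oasl1, Oasl2, Mx1, Mx2, Rsad2, Cmpk2, Isg20, Ifi44 and Rtp4. It made up 1.77 of 10000 knockout UMIs (1.74 to 1.80) and 1.479 of 10000 wild type UMIs (1.45 to 1.51). These levels without Ifitm3 and of the inducible members were taken after the sum had been seen. The list as a whole had a log2 ratio of knockout over wild type of 0.04, which is -0.18 under another scaling described with the ratios, and the inducible members had one of 0.26, which is 0.04 under that scaling.

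**Figure D1:**
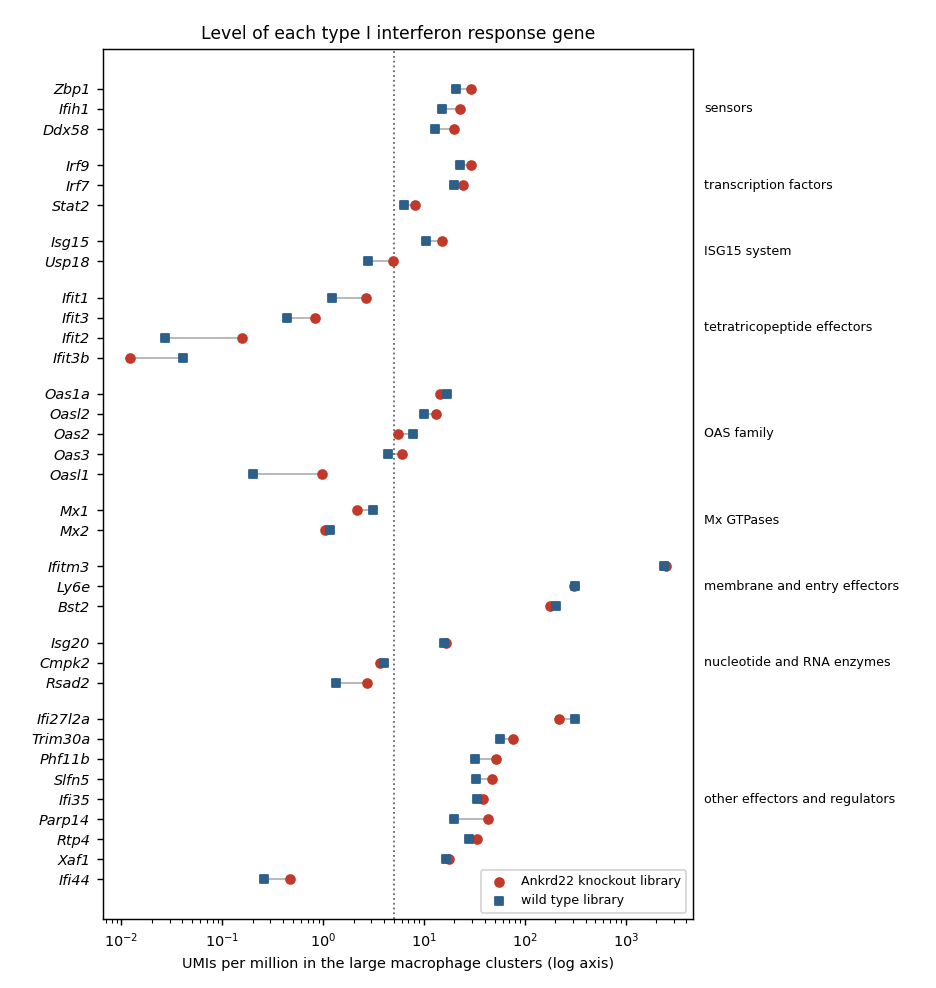
Level of the 34 members in the large macrophage clusters of the Ankrd22 knockout (red circles) and wild type library (blue squares), in CPM on a log axis, grouped by role, with a dotted line at 5 CPM. Ifitm3 stands at 2497 and 2403 CPM, while Ifit2 and Ifit3b lie below 0.2 CPM in both libraries.

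Most members were detected at low levels. Of the 34 members, 23 had a mean of at least 5 CPM over the libraries and are called measured here, and 11 did not (Usp18, Ifit1, Ifit2, Ifit3, Ifit3b, Oasl1, Mx1, Mx2, Rsad2, Cmpk2 and Ifi44). These CPM values are UMIs of 3' ends scaled to the same total, which do not grow with transcript length, so levels of different genes can be set side by side within the limits of 3' capture. After Ifitm3 came Ly6e, Ifi27l2a and Bst2, then Trim30a and Phf11b.

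Ratios of knockout over wild type were taken as log2 of CPM with 1 added to each. Over the 23 measured members the median log2 ratio was 0.31, with a range from -0.54 to 1.08, and 18 stood above 0, where 75.1% of all genes did. The median over all 8470 genes with a mean of at least 5 CPM was itself 0.21, and 14 of the 23 members lay above it. A ratio of 1.5-fold or more toward the knockout was found for 2 of the 23, Parp14 and Phf11b, against 12% of all genes, and 0 of 23 were at least 1.5-fold lower, against 3.41%. In either direction the members' count was 2 of 23, against 15.4% of all genes. When libraries were scaled by TMM factors, which moved every ratio down by 0.22, the members' median became 0.10 beside -0.01 for all genes. Under that scaling 14 members stood above 0, where 48.7% of all genes did. Parp14 alone was at least 1.5-fold higher, against 4.82% of all genes, since Phf11b came to 0.48, and Ifi27l2a and Oas2 were at least 1.5-fold lower, against 6.03%.

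**Figure D2:**
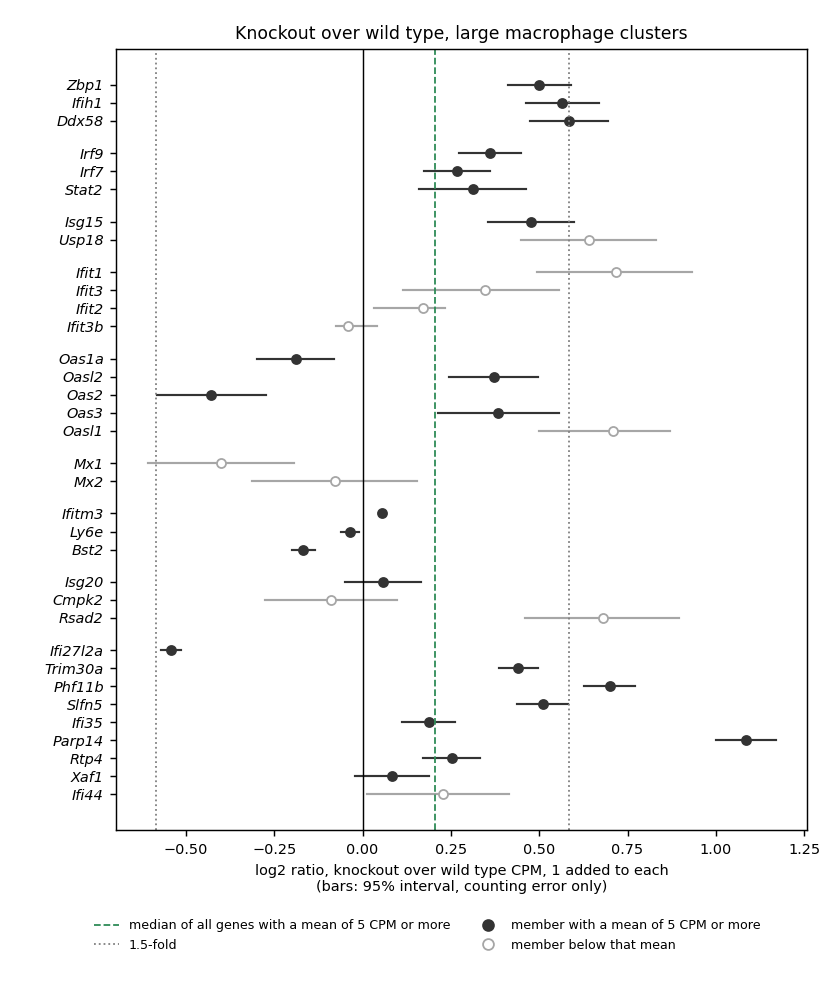
Log2 ratio of knockout over wild type CPM (1 added to each) for each member in the large macrophage clusters, with 95% intervals for counting error, a dashed line at the median of all genes (0.21) and dotted lines at 1.5-fold. Parp14 and Phf11b lie beyond the dotted line on the right among measured members (filled), Ddx58 sits just inside it, and Ifi27l2a is the lowest.

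The 3 sensors of nucleic acid among the members were all higher in the knockout library. Tlr7, an RNA sensor outside the list, was lower and is described with the genes around the response. Ddx58, encoding the RNA sensor RIG-I, stood at 19.7 CPM (knockout) and 12.8 CPM (wild type), which gives a log2 ratio of 0.58 with an interval from 0.47 to 0.69 just short of 1.5-fold. Ifih1, encoding the long double-stranded RNA sensor MDA5, stood at 22.6 and 14.98 CPM. Zbp1, a sensor of nucleic acids in the left-handed Z form that can start necroptosis, stood at 29.4 and 20.5 CPM, which gives a log2 ratio of 0.50 with an interval from 0.41 to 0.59. All 3 kept a ratio above 0 under TMM scaling, with a median of 0.35.

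The transcription factors among the members were also higher, by less. Irf9, the DNA-binding part of the complex, was at 29.1 CPM (knockout) and 22.5 CPM (wild type). Irf7, which drives further interferon production and is itself induced, was at 24.1 and 19.9 CPM, and Stat2 at 8.08 and 6.32 CPM. Their log2 ratios lay between 0.27 and 0.36, a narrow range above the all-gene median of 0.21. Isg15, a ubiquitin-like protein attached to other proteins during the response, stood at 14.9 and 10.4 CPM, which gives a log2 ratio of 0.48 with an interval from 0.36 to 0.60. Usp18, which removes Isg15 from proteins and dampens the interferon receptor, was below the measured level at 4.88 and 2.77 CPM.

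The Ifit proteins, which bind viral RNA and hinder its translation, were barely present. Ifit1 had 221 UMIs in 5022 knockout cells and 91 in 5004 wild type cells, Ifit3 had 68 and 32, Ifit2 had 13 and 2, and Ifit3b had 1 and 3. As levels, Ifit1 stood at 2.67 CPM (knockout) and 1.24 CPM (wild type). These counts were not spread evenly over cells. A single knockout cell held 27 of the 221 Ifit1 UMIs, 12.2%, and another held 7 of the 13 Ifit2 UMIs. Ifit3 and Ifit3b are close copies of each other, so the split of reads between them is uncertain. All 4 genes lie on chromosome 19 near the targeted gene: in GRCm38 coordinates Ifit2 starts at 34550694, 385 kb beyond the end of Ankrd22, and Ifit1, the farthest, starts at 34640871, 475 kb beyond it. Sequence that differs between the mice around the edited locus was not examined here.

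The OAS enzymes, which make the 2'-5' oligoadenylate that activates RNase L, and their relatives did not share a direction. Oas3 was at 6.05 CPM (knockout) and 4.40 CPM (wild type), and Oasl2 at 13.1 and 9.90 CPM. Oas1a was lower in the knockout, at 14.6 against 16.7 CPM, and so was Oas2, at 5.58 against 7.85 CPM. Oasl1, which represses translation of Irf7, had 80 UMIs (knockout) and 15 (wild type), under 1 CPM in both. The Oas genes lie together on chromosome 5, as do Oasl1 and Oasl2, and they are alike in sequence, so the split of reads among them is uncertain. The Mx GTPases, which trap viral nucleocapsids, were below the measured level, with Mx1 at 2.14 and 3.15 CPM and Mx2 at 1.05 and 1.17 CPM.

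The membrane members formed the abundant core, with ratios close to 0 that are all below 0 under TMM scaling. Ifitm3 (chromosome 7, 141009586 to 141010770 on the minus strand) stood at 2497 CPM (knockout) and 2403 CPM (wild type), which gives a log2 ratio of 0.06 with an interval from 0.05 to 0.06, and of -0.16 under TMM scaling. Ly6e, a lipid-anchored surface protein that restricts coronavirus entry, stood at 304.5 and 312.0 CPM, which gives a log2 ratio of -0.03 with an interval from -0.06 to -0.01. Bst2, which tethers budding virions to the cell surface, stood at 179 and 201 CPM, which gives a log2 ratio of -0.17 with an interval from -0.20 to -0.14. Among the enzymes of nucleotides and RNA, Isg20, an RNA exonuclease, was at 16.5 and 15.8 CPM, a ratio above 0 that is below 0 under TMM scaling. Rsad2, encoding viperin, which makes a chain-ending nucleotide, and its neighbour Cmpk2, a nucleotide kinase, were below the measured level. Rsad2 had 226 UMIs (knockout) and 98 (wild type), and Cmpk2 had 306 and 295.

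The remaining effectors and regulators held the highest and the lowest ratio of the measured members. Parp14 (chromosome 16, 35832874 to 35871544 on the minus strand), an ADP-ribosyltransferase, stood at 43.3 CPM (knockout) and 19.9 CPM (wild type), which gives a log2 ratio of 1.08 with an interval from 0.9998 to 1.17. Phf11b (chromosome 14, 59320964 to 59341351 on the minus strand), which encodes a PHD finger protein, stood at 52.2 and 31.8 CPM, which gives a log2 ratio of 0.70 with an interval from 0.63 to 0.77. Slfn5, a Schlafen family nuclear protein, stood at 47.3 and 32.9 CPM, which gives a log2 ratio of 0.51 with an interval from 0.44 to 0.58. Trim30a, a TRIM family protein that restrains signalling from Toll-like receptors, stood at 76.7 and 56.3 CPM, which gives a log2 ratio of 0.44 with an interval from 0.38 to 0.50. The lowest of the measured members was Ifi27l2a (chromosome 12, 103442167 to 103443680 on the minus strand), which encodes a small hydrophobic protein. It stood at 218 CPM (knockout) and 317 CPM (wild type), which gives a log2 ratio of -0.54 with an interval from -0.57 to -0.51. Ifi35, a partner of Nmi, was at 38.4 and 33.6 CPM, which gives a log2 ratio of 0.19 with an interval from 0.11 to 0.26, and of -0.03 under TMM scaling. Rtp4, at 33.2 and 27.7 CPM, and Xaf1, at 17.5 and 16.5 CPM, differed by less than Slfn5, Xaf1 with a log2 ratio of -0.13 under TMM scaling, and Ifi44 had 39 and 19 UMIs. Phf11b, Slfn5 and Trim30a have close relatives in the mouse genome, which makes the assignment of their reads less certain.

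Clusters within each library gave a second view of the same ratios, although clusters of 1 library are not replicates. For 12 of the 23 measured members every knockout cluster (0, 3, 5 and 7) lay above every wild type cluster (1, 2, 4 and 10), against 28.8% of all genes. For 1 of the 23, Ifi27l2a, every wild type cluster lay above, against 4.66%. Both counts rest on libraries scaled to an equal total, where most genes leaned toward the knockout. Some of the 12 were barely apart. The lowest knockout cluster had Slfn5 at 38.7 CPM and Irf7 at 22.4 CPM, where the highest wild type cluster had 38.2 and 21.3 CPM. How many stay apart under TMM scaling, which moves ratios down by 0.22, was not examined. Parp14 ranged from 36.8 to 55.5 CPM over the knockout clusters and from 17.9 to 30.1 CPM over the wild type clusters. Phf11b ranged from 49.3 to 56.4 and from 29.9 to 34.1 CPM, and Ifi27l2a from 160 to 248 and from 310.1 to 376 CPM. These 3 members did not overlap between the libraries, while Ifitm3, at 2098 to 2815 and 2284 to 2606 CPM, and Bst2 and Ly6e did.

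Cluster 3 of the knockout library, whose leading genes include Abca1 and Crebrf, departed most from the others. It had the lowest summed level, 31.5 per 10000 UMIs against 38.3, 40.2 and 39.4 in knockout clusters 0, 5 and 7, and also the fewest UMIs per cell, with a median of 12054. Its Bst2 stood at 112 CPM, where the other 3 knockout clusters had 196, 196 and 205 CPM, and its Ifitm3, Ly6e and Ifi27l2a were the lowest of the 4. The same cluster had the highest Parp14, Slfn5 and Ifih1 of the knockout clusters, at 55.5, 55.7 and 27.4 CPM. Of members below the measured level, Ifit1 stood at 5.93 CPM there against 1.55 to 1.99 CPM in the other 3, Rsad2 at 6.31 against 1.59 to 1.91 CPM and Usp18 at 9.25 against 3.51 to 3.82 CPM. The pair of cells with the most inducible members held 60 of its 116 Rsad2 UMIs and 37 of its 109 Ifit1 UMIs. Without them Rsad2 stood at 3.05 CPM, Ifit1 at 3.92 CPM and Usp18 at 8.61 CPM, and without all 12 cells of the cluster with at least 6 inducible members at 2.47, 2.96 and 8.18 CPM. Both sets of cells were chosen by inducible members, which include these genes, so leaving them out lowers these levels by construction. Oasl1, Mx2 and Ifi44 were highest in cluster 7, and Mx2 was lowest in cluster 3. Over the 23 measured members it was the lowest of the 4 knockout clusters for 10 and the highest for 5. Wild type clusters 1, 2, 4 and 10 differed less, between 35.5 and 39.0 per 10000.

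**Figure D3:**
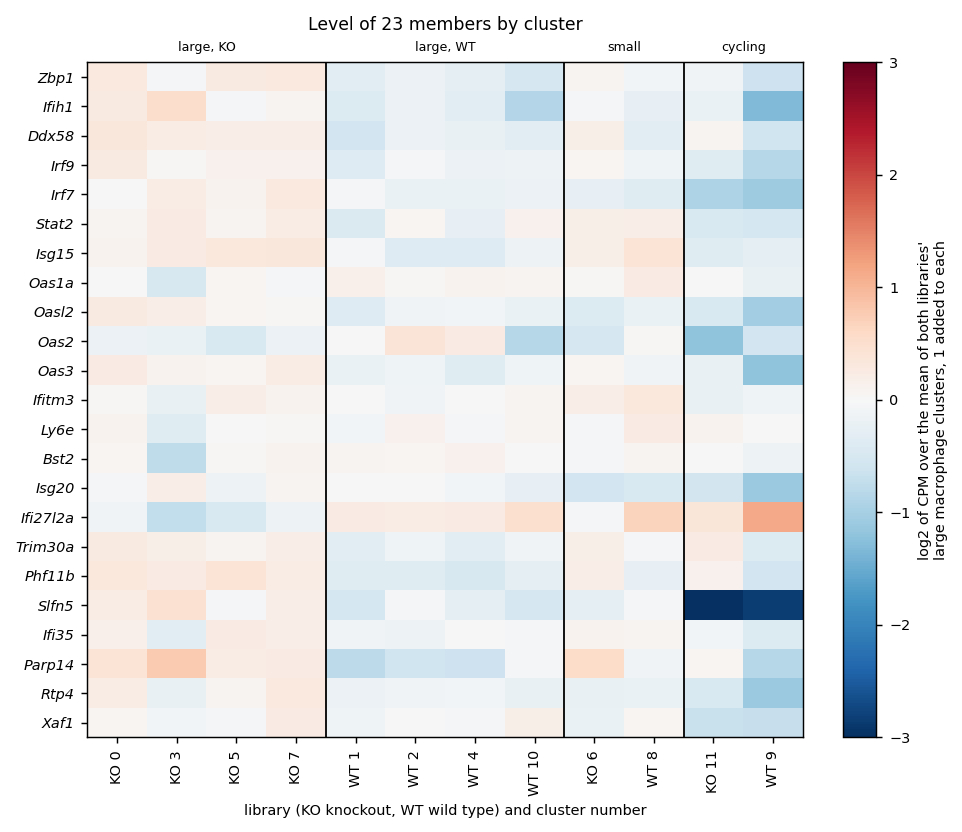
Level of the 23 measured members by library and cluster, as log2 of CPM over the mean of both libraries' large macrophage clusters (1 added to each), red above and blue below that mean. Parp14 and Phf11b are redder across the knockout large macrophage columns, Ifi27l2a is bluer there, and Slfn5 is deep blue in the cycling columns.

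Cells other than large macrophages carried the list too. In the small-macrophage-like cells (787 knockout cells, nearly all of cluster 6, and 661 wild type cells, nearly all of cluster 8), which express Ccr2 and class II genes, the summed level was 40.3 per 10000 for knockout cells (39.9 to 40.6) and 44.9 for wild type cells (44.5 to 45.3). The median log2 ratio of 23 measured members was -0.02, beside 0.16 for 8541 genes. Parp14, at 46.6 and 29.6 CPM, was the 1 member at least 1.5-fold higher, against 11.4% of all genes. Ifi27l2a, at 263 and 428 CPM, was the 1 member at least 1.5-fold lower, against 4.58%. Ifit3 had 9 UMIs in knockout and 27 in wild type cells of this class, and Ifit2 had 6 and 19. A single wild type cell, described with the cells of highest score, gave 20 of those 27 Ifit3 UMIs and 18 of those 19 Ifit2 UMIs.

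In cycling cells (160 in the knockout library and 237 in the wild type library, with medians of 28984 and 21689 UMIs), the summed level was 33.6 and 35.6 per 10000. Of 20 measured members, 6 (Ddx58, Ifih1, Rtp4, Trim30a, Phf11b and Parp14) exceeded 1.5-fold toward the knockout, against 17% of all genes, and 1, Ifi27l2a, was lower, against 5.41%. The median log2 ratio of the 20 measured members was 0.40, beside 0.19 for 8878 genes. Counts were small here. Of the 6 higher members only Ifih1, with an interval from 0.60 to 1.67, had one wholly beyond 1.5-fold. That of Ddx58, from 81 and 55 UMIs, ran from 0.21 to 1.17. TMM scaling was not examined in cycling cells. Slfn5, whose family includes restrainers of cell division, stood at 3.42 CPM in knockout and 4.71 CPM in wild type cycling cells, where the large macrophage clusters had 47.3 and 32.9 CPM. Ifi27l2a was higher in cycling cells than in the large macrophage clusters, at 353 and 589 CPM. The 39 B-cell-like barcodes of each library drew their score from another member, with Ly6e at 1548 and 1410 CPM and Ifitm3 at 117 and 113 CPM. That set shows the spread of the list over cell types: Ifitm3 made up 4.42% and 4.33% of member UMIs there.

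Single cells were compared after thinning each to 5000 UMIs, which left out 85 knockout and 280 wild type cells of the large macrophage clusters below that depth. The median cell had 17 member UMIs of 5000 in both libraries, and the middle of the distribution ran from 13 to 23 in both (25th and 75th percentiles). The 95th percentile was 33 (knockout) and 32 (wild type), and the highest cell 93 and 61. The variance over the mean, 1 for pure counting, was 3.64 and 3.20. Before thinning the medians were 34.6 and 34.01 per 10000.

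Strongly responding cells were rare in both libraries. Taken as thinned cells above 54.1 member UMIs, the median plus 5 scaled median absolute deviations over both libraries, they numbered 16 in the knockout library, 0.324% of 4937 with an exact binomial 95% interval from 0.185% to 0.526%. The wild type library had 7, 0.148% of 4724 with an interval from 0.0596% to 0.305%. The intervals overlap. This is a range of a continuous score and not a cell type: 11 and 7 of these cells lay within 1 scaled deviation (7.41 UMIs) above the threshold, and 18 and 19 cells within 1 below. In small-macrophage-like cells the same rule found 2 of 772 knockout cells, 0.259% (0.0314% to 0.933%), and 8 of 623 wild type cells, 1.28% (0.556% to 2.51%). The threshold was set on large macrophages, whose median was 17 member UMIs. The small-macrophage-like cells had higher medians, 19 (knockout) and 21 (wild type), so more of them could pass it. No cycling cell passed, of 160 and 226, which at 3 counts of the total allows a share of up to 1.88% and 1.33%, and of the B-cell-like barcodes 0 of 15 and 1 of 19 did.

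A rule based on the inducible members picked mostly other cells. With a UMI of at least 6 of the 20 inducible members there were 18 of 4937 knockout cells, 0.365% (0.216% to 0.576%), and 9 of 4724 wild type cells, 0.191% (0.0872% to 0.361%). Again the intervals overlap, and 27 and 16 cells had exactly 5. Most cells showed few inducible members, with no inducible member in 50.2% (knockout) and 54.4% (wild type) and 1 in 31.9% and 31.1%. Only 4 cells of the knockout and 2 of the wild type library met both rules, 25% and 28.6% of the cells chosen by score and 22.2% of those chosen by inducible members in each library. Of the 30 knockout cells that met either rule, 1 had a barcode also present in the wild type library, and of the 14 wild type cells none did. None of the B-cell-like barcodes met the inducible rule when thinned to 2000 UMIs, of 33 and 37, which allows up to 9.09% and 8.11%, so this background is known only loosely. At that depth 2 of 5004 knockout and 0 of 4951 wild type cells of the large macrophage clusters met it. Of small-macrophage-like cells thinned to 5000 UMIs, 1 of 772 knockout cells met it, 0.130% (0.00328% to 0.720%). So did 3 of 623 wild type cells, 0.482% (0.0994% to 1.40%).

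**Figure D4:**
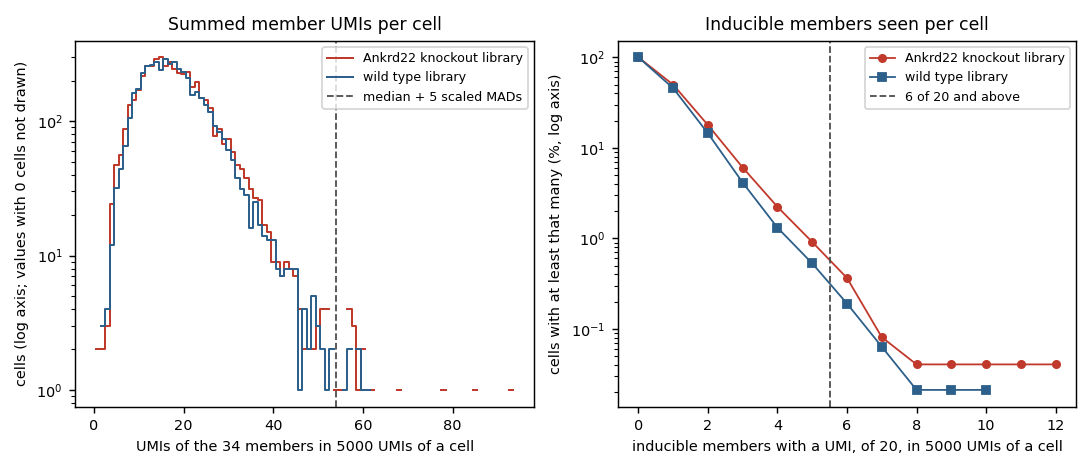
Left, number of large macrophage cells (log axis) by member UMIs in 5000 UMIs of a cell, for the knockout (red) and wild type library (blue), with the threshold of 54.1 dashed. Right, percentage of cells (log axis) with at least a given number of the 20 inducible members. The score curves overlie up to the tail, and the knockout curve for inducible members lies above the wild type curve throughout.

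What the cells contained differed between the 2 rules. The split into kinds was made after the counts of cells were seen, and the levels describe cells chosen on these genes. The 12 knockout cells that met the score rule alone had Ifitm3 at 6269 CPM and Ifi27l2a at 2619 CPM, with Ifit1 and Rsad2 at 1 UMI each. The 5 such wild type cells had Ifitm3 at 5784 CPM and Ifi27l2a at 1729 CPM, with 0 UMIs of Ifit1 and Rsad2. In the 14 knockout and 7 wild type cells that met the inducible rule alone, Ifi27l2a stood at 449 and 552 CPM, and Slfn5 at 538 and 297 CPM. These contrasts follow largely from the rules and are no separate result. Ifitm3 held most of the summed UMIs, and cells that met the score rule alone had few inducible members by definition.

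Among the 14 members that the inducible rule did not use, Slfn5 differed most between the chosen cells and the others. It stood at 596 CPM in the 18 knockout cells against 45.7 CPM in the others, and at 313 CPM in the 9 wild type cells against 32.5 CPM. Parp14 stood at 250 against 42.7 CPM and at 104 against 19.8 CPM, and Phf11b at 242 against 51.6 CPM and at 120.5 against 31.7 CPM. Trim30a, Xaf1 and Ddx58 were also higher in these cells of both libraries. Ifih1, at 84.6 against 22.4 CPM in the knockout library, was not apart in the wild type library, at 16.1 against 14.99 CPM from 2 UMIs. Ifitm3 was higher by less, at 3437 against 2496 CPM and at 3679 against 2404 CPM. Cells chosen by inducible members thus also held more of most members that the rule did not use.

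**Figure D5:**
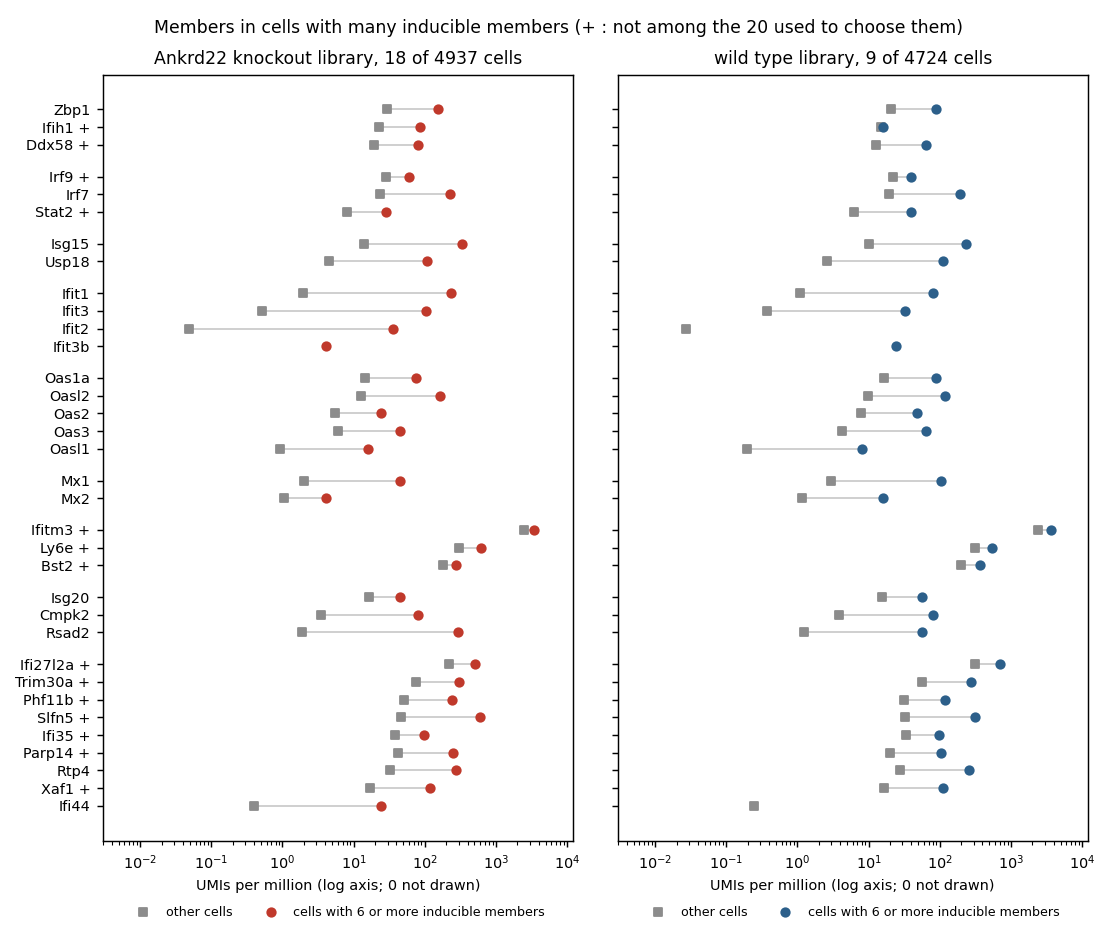
Level of each member (CPM, log axis) in cells with at least 6 of the 20 inducible members (coloured) and in the other large macrophage cells (grey) of each library, with members that the rule did not use marked by a plus sign. Slfn5, Parp14 and Phf11b lie to the right in the chosen cells of both libraries, and Ifitm3 and Bst2 lie close to the other cells.

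Genes outside the list were ranked by their ratio in those cells over the others, with at least 1.5-fold in both libraries. The first of them was Iigp1, an immunity-related GTPase, at 423 against 7.46 CPM among knockout cells and 112 against 3.86 CPM among wild type cells, where it rested on 14 UMIs. Irgm1, at 153 against 15.1 CPM and 64.3 against 9.62 CPM, Igtp, at 105 against 10.3 CPM and 64.3 against 8.78 CPM, and Tgtp2 belong to the same family. Parp9, a partner of Dtx3l, stood at 96.7 against 11.99 CPM and at 72.3 against 8.47 CPM. The remaining genes of the 10 highest were Ifi211, Gm12250, Slfn9, Slfn1 and Ifi207. Under the score rule, Iigp1 also led, followed by Gbp5, H2-T24, Ifi211, Gm4841, Ifi47, Phf11d, Oas1g, Irgm1 and Trim30c. Several ranks rested on few UMIs in the chosen wild type cells. Tgtp2 and Slfn9 had 3 each under the inducible rule, and H2-T24 had 3 and Oas1g 2 under the score rule.

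A few cells carried most of the inducible members at once. In the knockout library 2 cells of cluster 3 had 12 of the 20 in 5000 UMIs, with summed scores of 174 and 179 per 10000. The first had 13140 UMIs in all, with 18 of Rsad2, 12 of Isg15, 12 of Irf7, 10 of Ifit1 and 7 of Usp18. The second had 15796 UMIs, with 42 of Rsad2, 27 of Ifit1, 18 of Isg15, 15 of Ifit3 and 14 of Cmpk2. In the wild type library the highest was a small-macrophage-like cell of cluster 8 with a score of 278 per 10000, 56 Isg15 UMIs, 20 of Ifit1, 20 of Ifit3 and 18 of Ifit2. The highest wild type large macrophage had 10 of the 20 inducible members, with 10 UMIs of Isg15, 8 of Usp18 and 7 of Mx1. None of these 4 cells had a UMI of Ifnb1, which had only 2 over all barcodes, so this absence says little. Their depths were ordinary: the deepest of all cells that met either rule had 23892 UMIs (knockout) and 23537 (wild type), below the 95th percentiles of 28461 and 26959.

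These few cells weighed on the rare members. The 18 knockout cells, of 5022, held 72 of the 226 Rsad2 UMIs (31.9%), 58 of the 221 Ifit1 UMIs (26.2%) and 26 of the 68 Ifit3 UMIs (38.2%). In the wild type library the 9 cells held 7 of 98 (7.14%), 10 of 91 (10.99%) and 4 of 32 (12.5%). In the remaining thinned cells Ifit1 stood at 1.97 CPM (knockout) and 1.09 CPM (wild type), and Rsad2 at 1.88 and 1.24 CPM. The rule itself used Rsad2, Ifit1 and Ifit3. High shares in the chosen cells and lower levels in the rest thus follow largely from the choice and are no separate result. For the measured members the chosen cells mattered little, with 1.73% of Parp14 UMIs and 3.78% of Slfn5 UMIs in the knockout library. Of the 18 knockout cells, 66.7% were in cluster 3, which held 28.8% of the other cells, and their median depth was 13654 UMIs against 15709. Of the 9 wild type cells, 55.6% were in cluster 2, which held 35.1% of the others.

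Members differed widely in how often they were seen. In thinned cells Ifitm3 was seen in 4935 of 4937 knockout cells and in each of 4724 wild type cells, Ly6e in 72.4% and 73.1%, Bst2 in 55.4% and 62.0% and Ifi27l2a in 46.6% and 59.9%. Parp14 was seen in 17.6% and 8.70%, Isg15 in 6.16% and 4.61%, and Ifit1 in 0.932% and 0.614%. At 2000 UMIs Ifitm3 was seen in 97.7% and 98.0% of large macrophage cells and in 27.3% of 33 and 29.7% of 37 B-cell-like barcodes, where free RNA can also give UMIs. At that depth Parp14 was seen in 8.25% and 4.42% of large macrophage cells and in 3.03% and 8.11% of B-cell-like barcodes. The latter were 1 of 33 and 3 of 37 barcodes, too few to tell whether the types differed in either library. The B-cell-like barcodes may also express the gene themselves. Ifi27l2a had a variance over mean of 3.23 and 3.34 and Ifitm3 one of 2.75 and 2.47, far above most members near 1. At the same relative spread this measure grows with the mean, so it does not rank members by how much they vary between cells. The mean was 12.5 and 12.2 UMIs per thinned cell for Ifitm3, against 0.072 and 0.053 for Isg15. Rsad2 and Ifit1 had high values in the knockout library, 4.26 and 3.15, and 1.27 and 0.994 in the wild type library.

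Correlations across cells were weak, and are given as descriptions over 4937 and 4724 cells that share a library. The Spearman correlation of a member with the sum of the others was highest for Ifi27l2a, 0.28 (knockout) and 0.26 (wild type), then Ifitm3 with 0.26 and 0.25. Isg15 reached 0.11 and 0.06. For every member but Ifitm3, the sum of the others was mostly Ifitm3. With Ifitm3 left out of that sum, Ifi27l2a had 0.21 and 0.17 and Rtp4 had 0.20 and 0.19, so the order depends on Ifitm3. The summed score correlated with depth before thinning at 0.06 and -0.05, with the mitochondrial share at -0.03 and -0.08 and with Malat1 at -0.05 and -0.08. With the summed markers of large macrophages the correlation was -0.17 and -0.13, or -0.02 and 0.02 when Ifitm3 was left out of the score. With markers of small macrophages it was 0.01 and 0.13, and with cycling markers 0.03 and 0.02. The inducible score correlated with the interferon gamma GTPases at 0.12 and 0.11. In counts this sparse such values show no more than that no single measure ordered the cells by score.

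Genes around the response were examined in 6 lists in the large macrophage clusters. Of 21 interferon ligands none was measured. Ifnb1 had 2 UMIs over all barcodes, Ifnk 15 and Ifnz 4, and the other names had 0, which allows up to 0.0270 CPM (knockout) and 0.0310 CPM (wild type). All 8 receptor and kinase genes were measured, none past 1.5-fold, with a median log2 ratio of 0.16 that is -0.06 under TMM scaling. Ifnar1 stood at 32.1 and 30.1 CPM and Ifnar2 at 190 and 200.05 CPM, and the kinase gene Jak1 at 142 and 104.5 CPM. The interferon gamma receptor chains Ifngr1 and Ifngr2 stood at 106 and 85.6 CPM and at 52.1 and 41.6 CPM. In CPM the chains Ifnar1 and Ifnar2 were thus nearly level between the libraries, with log2 ratios of 0.09 and -0.07. Under TMM scaling these ratios were -0.12 and -0.29.

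Of 20 measured genes of sensing and induction, 1 exceeded 1.5-fold toward the knockout and 3 toward the wild type, with a median log2 ratio of 0.10. Under TMM scaling these counts were 1 and 5, with a median of -0.12. Cgas, the DNA sensor, was the higher one at 11.3 against 5.32 CPM, and Tlr7, Tlr8 and Trim25 were the lower ones. Tlr7, an endosomal RNA sensor, stood at 16.3 against 29.1 CPM, and Trim25, which activates RIG-I, at 39.1 against 72.1 CPM. Irf1, an inducer of many of these targets, stood at 25.3 against 37.1 CPM. Of 12 measured feedback inhibitors 2 were at least 1.5-fold higher, Samhd1 at 189 against 118 CPM and Ptpn11 at 34.5 against 21.95 CPM, and none lower. Socs3 stood at 89.5 against 128 CPM, a log2 ratio of -0.52. Under TMM scaling none of these inhibitors was past 1.5-fold higher and 1, Socs3, was lower. The shares of all genes were 12% higher and 3.41% lower, and 4.82% and 6.03% under TMM scaling, for this and the other pathway lists.

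Of 42 measured interferon-stimulated genes outside the list, 9 were at least 1.5-fold higher, against 12% of all genes, and 0 lower, against 3.41%, with a median log2 ratio of 0.32, close to the 0.31 of the members. Eif2ak2, encoding the translation-blocking kinase PKR, stood at 31.2 against 13.4 CPM, a log2 ratio of 1.17. Slfn1 at 48.5 against 26.5 CPM and Slfn8 at 27.9 against 15.04 CPM were also among them. Cxcl10, an interferon-induced chemokine, went the other way, at 0.387 CPM from 32 UMIs in the knockout against 9.55 CPM from 703 UMIs in the wild type library, and its mean level of 4.97 CPM lay just below the measured genes. It was picked after its values were seen. Of 9 measured interferon gamma GTPases, 6 were at least 1.5-fold higher and 0 lower, with a median of 0.62. Gbp2 stood at 57.1 against 27.2 CPM, Gbp3 at 94.6 against 50.3 CPM and Gbp7 at 54.6 against 32.8 CPM. Under TMM scaling 3 GTPases were at least 1.5-fold higher and 0 lower, with a median of 0.41. The other interferon-stimulated genes then had 5 higher and 1 lower, with a median of 0.10.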

How the data were processed

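The authors deposited gene by barcode matrices of raw UMI counts for 1 library per genotype, with Cell Ranger 6.1.2 named in the file headers. Besides it, bcl2fastq, Seurat 4.1.0 and mm9 appear in the submitters' processing notes. All 55450 feature identifiers are in GENCODE M21 on GRCm38, which gave the gene positions.

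Members and lists were chosen with earlier results of these data known. Kept barcodes had at least 500 genes and at most 10% of UMIs from mitochondria. Scrublet's own threshold called 1 barcode per library, so the 324 and 313 highest scores were removed as the share of doublets expected from the loading (5.09% and 5.00%). Cells were clustered (2000 variable genes, 30 components, 15 neighbours, Leiden resolution 1, seed 0) without integration, and clusters were named from fixed markers with thresholds set after the data were seen (3 markers 2-fold higher, or 3 seen in 25% of cells). Every cluster but 12 and the unnamed 13 came almost wholly from 1 library.

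UMIs were summed per library over the large macrophage clusters, scaled to CPM and compared as log2 with 1 added. Intervals are conditional exact binomial or Poisson ones at 95%. UMIs of 1 cell are not independent cells, and the intervals cover counting error only. Genes with a mean of at least 5 CPM counted as measured. Members given in full were the 6 with the highest mean and, at a mean of at least 20 CPM, the 5 with the highest and 5 with the lowest ratio. Of each pathway list the 3 genes with the largest absolute log2 ratio at that mean were named, and of genes outside the list the 10 highest in the chosen cells. Tlr8, Cgas, Cxcl10, Ifnar1 and Ifnar2 were added after their values were seen. Reads of near copies (Ifit3 and Ifit3b, the Oas, Phf11, Slfn and Trim30 families) may be split uncertainly. Shares of cells were taken at 5000 or 2000 UMIs per cell. The ratio script was checked on simulated counts. Alternatives were TMM factors (edgeR 4.0.16), median of ratios size factors, other filters, thresholds, depths and cell sets. Tools were Python 3.11.15, numpy 2.4.6, scipy 1.17.1, scanpy 1.11.5, leidenalg 0.10.2 and R 4.3.3.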

Additional observations from a re-analysis of the deposited data

How the results depend on the processing

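The members' median log2 ratio of 0.31 was 0.10 with TMM factors and 0.094 with median of ratios size factors, with 1 member at least 1.5-fold higher and 2 lower under each. The count of higher members was 4 with 0.1 added to each CPM and 6 over all 34 members. The log2 ratio of the summed level, 0.04, was -0.18 with TMM factors, 0.25 without the 3 members of most UMIs and 0.013 over all kept cells. In alternatives chosen after seeing the data it was 0.0088 without Ifitm3 and 0.26 for inducible members only, or 0.044 with TMM factors. The share of cells past the score threshold was 1.76% (knockout) and 1.67% (wild type) at 3 scaled deviations, and 0.0608% and 0% at 8, where 0 of 4724 cells allows up to 0.0635%. It was 0.577% in the knockout library without thinning, 49.8% and 45.6% for inducible members only, where the threshold fell to 0, and 1.479% and 1.12% without Ifitm3, added after seeing the data. The share with many inducible members was 0.0405% and 0.0212% at 8 of 20, 2.23% and 1.31% at 4 of 20, 5.73% and 3.64% without thinning, and 0.0400% and 0% at 2000 UMIs, where 0 of 4951 cells allows up to 0.0606%. Of the other alternative values, the share of wild type cells past the score threshold was 0.242% at 2000 UMIs and 0.240% without thinning, beside 0.148%, and 0.380% of knockout cells at 2000 UMIs, beside 0.324%. No paired analysis was possible because each genotype had 1 library. Depth limits Ifit2, with 13 and 2 UMIs, and Ifit3b, with 1 and 3, for which no fold is given.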

Other observations

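Cells with a UMI of Ifit1 were set beside the other large macrophage cells of the same library, a choice made after the values were seen. The 139 such knockout cells had a median of 17764 UMIs against 15436, so a deeper cell had more chance to be among them. Usp18 stood at 31.1 against 4.02 CPM in the knockout library, and Slfn5 at 141 against 44.3 CPM. In the 78 wild type cells Slfn5 stood at 97.1 against 31.8 CPM and Isg15 at 36.7 against 9.97 CPM. Ifitm3 differed least of these, at 2900 against 2484 CPM (knockout) and 2599 against 2400 CPM (wild type).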
